A study of Sus scrofa with 6 samples.

Results

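The DNAJ genes of pig skeletal muscle, which encode the J-domain co-chaperones of HSP70, were examined in 3 UCP1 KI pigs and 3 WT pigs. Members were all genes whose pig Ensembl symbol begins with DNAJA, DNAJB or DNAJC and a number, except *DNAJB1*, provided that at least 3 of the 6 pigs had 10 or more counts. Of 30476 genes in the count table, 36 were members, with 4 genes of class A, 9 of class B and 23 of class C. The gene name table held 39 such symbols besides *DNAJB1*. Of these, *DNAJC30* had no row in the count table, and *DNAJC5B* and *DNAJC22* were counted 0 times in every pig. All 36 members also passed the low-count filter of the test.

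RNA-seq was made from the longissimus dorsi, a muscle along the back, of 6-month-old pigs, and each pig gave 1 library. The UCP1 KI pigs carry UCP1, the uncoupling protein of thermogenic fat, as a knock-in made with CRISPR/Cas9 and described as specific to adipocytes, so the muscle was sampled as a tissue outside the targeted one. The promoter that drives the knock-in, the sex and breed of the pigs, and whether they were littermates are not given in the sources used here, and the p values measure the spread between these pigs. The name table has no pig identifier for *UCP1*, so the genotype labels could not be checked against it. The study reports that RNA-seq found no *UCP1* mRNA in muscle of either genotype, so its reads would not tell the genotypes apart in this tissue.

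J-domain proteins deliver unfolded or newly made proteins to HSP70 chaperones and stimulate the ATPase of HSP70 through the J domain. Class A members resemble bacterial DnaJ most closely, class B members share part of its layout, and class C members have in common the J domain alone. Members differ in where they work. Cytosolic members of classes A and B serve general folding and heat stress, others stand in the membrane of the endoplasmic reticulum or in its lumen, where HSPA5 is the HSP70, and others act in mitochondria, on vesicles, on ribosomes or in the nucleus. Muscle depends on these proteins to keep sarcomere proteins folded, and mutations of *DNAJB6* cause a muscular dystrophy.

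The libraries held between 30220951 and 35066624 counts on genes, and members received between 0.11% and 0.236% of them. Values are given as CPM, a library's counts scaled to a common total, on library totals corrected with TMM factors, and a count of 3 corresponded to between 0.0795 and 0.11 CPM. Gene lengths were not available, so CPM values were compared between pigs and not between genes. Of 10 muscle fibre markers, 5 were found (*ACTA1*, *CKM*, *TNNT3*, *TNNC2* and *DES*), and they summed to between 61083 and 101067 CPM in UCP1 KI pigs and between 78675 and 117881 CPM in WT pigs. Among markers of other cell types, 4 of 6 fibroblast genes (*COL1A1*, *COL1A2*, *COL3A1* and *LUM*) were called lower in UCP1 KI pigs, and the 6 summed to 235 to 435 CPM against 742 to 1187 CPM. *TEK*, 1 of 4 endothelial genes found, and *CD3E*, 1 of 6 leukocyte genes, were called higher, while no adipocyte, red blood cell or Schwann cell marker was called. The red blood cell markers nevertheless summed to 11.4 to 75.8 CPM in UCP1 KI pigs against 104 to 179.5 CPM in WT pigs, and 1 of the 2 tested was lower in every UCP1 KI pig. None of the markers found was at 0 in all 6 pigs. In whole muscle, fewer cells of a type and less RNA per cell cannot be told apart.

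The comparison asks which J-domain genes differ in muscle when UCP1 is present in fat. Genes with an unadjusted p under 0.05 whose log2 fold change exceeded 0.5 in size, which are the limits of the study, were called from edgeR's quasi-likelihood test fitted on 13402 genes. *DNAJC1* and *DNAJC3*, both of the endoplasmic reticulum, were called higher in UCP1 KI pigs, and *DNAJC24* and *DNAJC25* were called lower. The 2 genes in each direction are 5.56% of the 36 members. Among all genes tested, 3.84% were called higher and 4.34% lower, so the share of members called lay near the share of all genes. No member had an adjusted p under 0.05 from edgeR with Benjamini-Hochberg adjustment over all genes tested, with a smallest adjusted p of 0.583. Of all 13402 genes tested, 0 had one either. At an unadjusted p under 0.05 from the same test there were 4 members and 1100 of all genes tested. DESeq2, run on the same 13402 genes or on every gene that had a count, also gave 0 members at an adjusted p under 0.05, with smallest values of 0.308 and 0.389. Over all genes, these DESeq2 runs gave 127 of 13402 and 112 of 20062 genes at that limit.

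Across the 36 members the median log2 fold change was 0.11, against -0.02 over all genes tested. It was above 0 for 23 members (63.9%), against 48.7% of all genes tested. Scaling by library size only moved the median of all genes to 0.24 and that of the members to 0.36, and the difference between both medians stayed at 0.12. By class, the medians were 0.23 for class A, 0.09 for class B and 0.04 for class C. All 4 called genes were of class C, which held 23 of the 36 members.

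**Figure D1:**
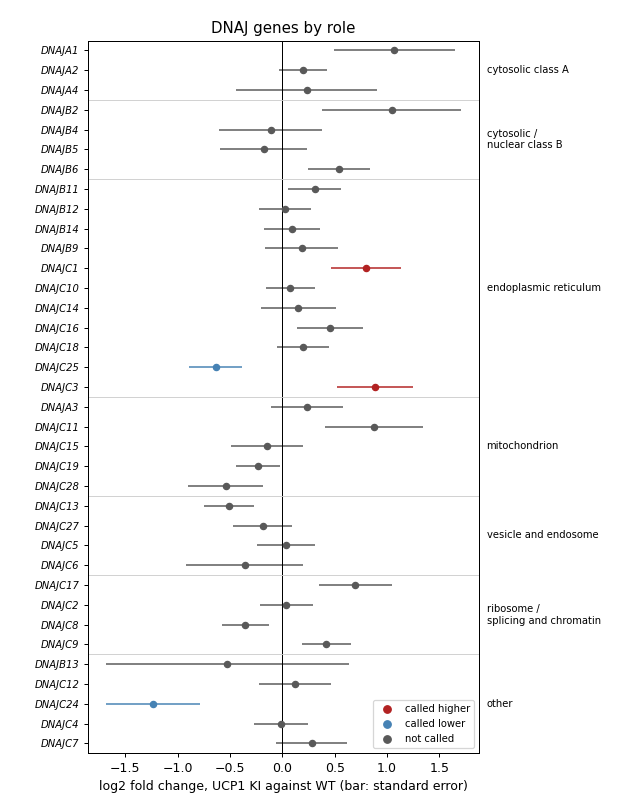
Log2 fold change of each of the 36 DNAJ genes, UCP1 KI against WT, in rows grouped by role, with the standard error as a bar. *DNAJC1* and *DNAJC3* are called higher at 0.80 and 0.88, *DNAJC25* and *DNAJC24* are called lower at -0.64 and -1.23, and the other 32 are not called.

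*DNAJC1* (ENSSSCG00000026001; Sscrofa11.1, chromosome 10, 52862813 to 53060747) encodes a protein of the endoplasmic reticulum membrane whose J domain faces HSPA5 in the lumen. Its level was 17.9, 27.3 and 18.8 CPM in UCP1 KI replicates 1 to 3 and 9.92, 9.20 and 17.7 CPM in WT replicates 1 to 3. Every UCP1 KI pig lay above every WT pig, although WT replicate 3 came within a small margin of the lowest UCP1 KI pig. The log2 fold change was 0.80 (standard error 0.33), with an unadjusted p of 0.0455 and an adjusted p of 0.604 from edgeR's test. *DNAJC1* passed the limits without WT replicate 3, at 1.16, and did not pass them without any of the other 5 pigs. There its log2 fold change was 0.91, 0.57 and 0.88 without UCP1 KI replicates 1, 2 and 3, and 0.66 and 0.62 without WT replicates 1 and 2.

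*DNAJC3* (ENSSSCG00000026082; Sscrofa11.1, chromosome 11, 65230145 to 65299084) encodes P58IPK, a lumenal partner of HSPA5 that also restrains the stress kinase PERK. It was measured at 31.9, 38.5 and 21.0 CPM in UCP1 KI pigs and at 18.7, 21.0 and 9.84 CPM in WT pigs. The groups touched without overlapping, since UCP1 KI replicate 3 and WT replicate 2 were nearly equal. The difference of 0.88 on the log2 scale (standard error 0.36) had an unadjusted p of 0.0401 and an adjusted p of 0.603 from edgeR's test. The call held when UCP1 KI replicate 3 (1.09) or WT replicate 2 (1.09), the pigs that nearly met, was left out, and was lost without UCP1 KI replicate 1 (0.85) or 2 (0.67) and without WT replicate 1 (0.98) or 3 (0.62). RefSeq places another locus, LOC106507943, over part of *DNAJC3*, and since the strand of the libraries is not stated, reads of both cannot be told apart.

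*DNAJC24* (ENSSSCG00000026083; Sscrofa11.1, chromosome 2, 29305688 to 29365244) encodes DPH4, a J-domain protein that works in the synthesis of diphthamide, a modified histidine of elongation factor EEF2, and not in folding. It received few reads, with 38, 69 and 25 counts for the UCP1 KI pigs against 117, 74 and 92 for the WT pigs, which correspond to 1.23, 1.94 and 0.662 CPM and to 3.23, 2.70 and 3.07 CPM. Every UCP1 KI pig was below every WT pig, and the WT pigs lay close together. The log2 fold change was -1.23 (standard error 0.45) and gave the smallest unadjusted p of the members, 0.0258, with an adjusted p of 0.583 from edgeR's test. *DNAJC24* stayed past the limits without UCP1 KI replicate 2 (-1.67) or WT replicate 2 (-1.30). It did not pass them without UCP1 KI replicate 1 (-1.20) or 3 (-0.92) or without WT replicate 1 (-1.18) or 3 (-1.21). The gene overlaps a protein-coding locus, LOC100517025, and *IMMP1L*, a subunit of a mitochondrial protease, which was at 19.6 to 33.6 CPM in UCP1 KI pigs and 23.0 to 36.0 CPM in WT pigs, at a log2 fold change of -0.13. As for *DNAJC3*, reads of overlapping loci cannot be told apart without the strand.

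*DNAJC25* (ENSSSCG00000005460), a membrane J-domain gene placed in the list of the endoplasmic reticulum, was measured at 10.3, 8.13 and 11.8 CPM in UCP1 KI pigs and at 17.9, 15.9 and 13.2 CPM in WT pigs. All UCP1 KI pigs were below all WT pigs. Here the log2 fold change was -0.64 (standard error 0.26), with an unadjusted p of 0.0386 and an adjusted p of 0.603 from edgeR's test. It passed the limits without UCP1 KI replicate 3 (-0.76) or WT replicate 3 (-0.74). Without UCP1 KI replicates 1 and 2 it was -0.65 and -0.52, and without WT replicates 1 and 2 it was -0.54 and -0.62, and none of these passed the p limit. With library size only, neither *DNAJC24* (-0.99) nor *DNAJC25* (-0.39) was called, and *DNAJC25* (-0.61) was not called either when all genes of any count were tested. The 4 fibroblast markers named above were lower in every UCP1 KI pig as well, and their part in these differences was not tested.

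A further 3 members had no overlap between the groups without passing the limits, so that 4 members in all were higher in every UCP1 KI pig and 3 were lower. These are 11.1% and 8.33% of members, against 7.59% and 7.69% of all genes tested. With library size only, 6 members were higher in every UCP1 KI pig (16.7%, against 11.9% of all genes tested) and *DNAJC13* alone was lower (2.78%, against 2.63%), and the groups overlapped for *DNAJC24* and *DNAJC25*. *DNAJC11*, a protein of the mitochondrial membranes that binds the complex shaping the cristae, was at 32.7, 31.4 and 44.2 CPM in UCP1 KI pigs and at 7.39, 21.9 and 29.7 CPM in WT pigs. WT replicate 1 stood far below the other pigs, and the log2 difference of 0.88 (standard error 0.47, unadjusted p = 0.0996 from edgeR's test) was 0.48 without it and passed the limits without WT replicate 3, at 1.31. *DNAJC9*, which chaperones histones H3 and H4 on their way to chromatin, was at 12.8, 15.1 and 13.7 CPM against 9.01, 10.3 and 11.8 CPM, and its log2 fold change was 0.42 (standard error 0.23, unadjusted p = 0.107 from the same edgeR test). *DNAJC13*, known as RME-8, which helps to recycle receptors from endosomes, was at 11.1, 11.8 and 11.7 CPM in UCP1 KI pigs and at 13.8, 19.9 and 15.5 CPM in WT pigs. The UCP1 KI pigs were nearly identical in *DNAJC13*, whose log2 fold change was -0.50 (standard error 0.24, unadjusted p = 0.0685 from edgeR's test), and it passed the limits without WT replicate 1, at -0.62. For each of these 7 genes the two-sided exact permutation test on log2(CPM + 1) gave p = 0.1, the smallest that 3 pigs against 3 allow, a value that the lack of overlap itself fixes.

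**Figure D2:**
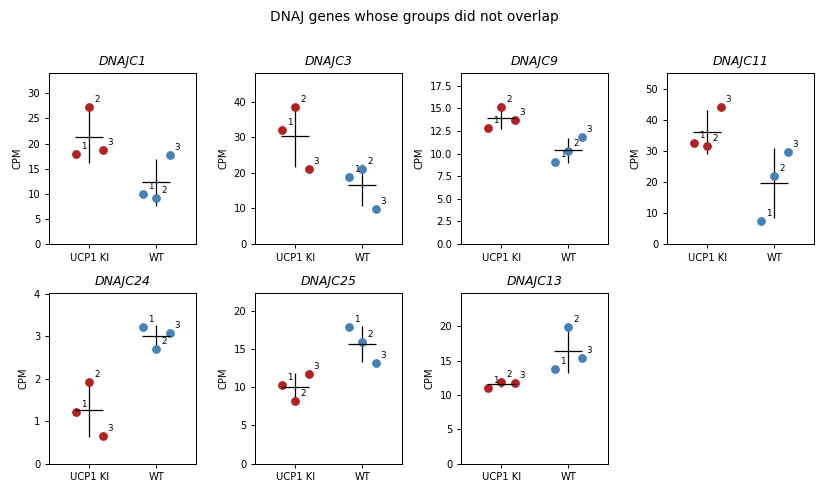
CPM of the 7 DNAJ genes without overlap between groups, with 1 point per pig numbered by replicate, the mean as a horizontal bar and the SD over 3 pigs as a vertical bar. The upper row shows the 4 genes that were higher in every UCP1 KI pig, in which the nearest pigs of both groups are close for *DNAJC1* (17.9 and 17.7 CPM) and *DNAJC3*, and the lower row shows the 3 that were lower.

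Among the 11 members of the endoplasmic reticulum, 2 were called higher (18.2%, against 3.84% of all genes tested), 1 was called lower (9.09%, against 4.34%) and 8 were not called. Apart from *DNAJC25*, all had a log2 fold change above 0, so that 10 of 11 did with TMM factors, median-of-ratios factors or library size only, and 8 to 10 did with a pig left out. With TMM factors, 48.7% of all genes tested were above 0. With library size only, 29 of the 36 members and 68.1% of all genes tested were above 0 as well. The median of the 11 members of the endoplasmic reticulum was 0.19 with TMM factors and 0.47 with library size only. Their summed level was 237, 279 and 253 CPM in UCP1 KI pigs and 211, 229 and 225 CPM in WT pigs. These groups did not overlap with TMM factors and did with library size only, where UCP1 KI replicate 1 was at 224 CPM and WT replicate 1 at 225 CPM. *DNAJB11*, a lumenal co-chaperone that binds unfolded proteins directly, was at 18.5, 23.2 and 15.2 CPM against 13.1, 16.5 and 16.3 CPM, a log2 fold change of 0.31 (95% interval -0.27 to 0.89). *DNAJB9*, which directs misfolded proteins to degradation, was at 15.2, 11 and 14.1 CPM against 7.64, 10.1 and 17.7 CPM, at 0.19 (95% interval -0.62 to 1.0). *DNAJC10*, a reductase that breaks wrong disulfide bonds, was within 33.7 to 36.0 CPM in UCP1 KI pigs and 25.9 to 40.4 CPM in WT pigs, at 0.08. *DNAJB12*, which received the most reads of this list over the 6 pigs and assists degradation from the membrane together with *DNAJB14*, was at 45.5, 41.7 and 62.9 CPM against 56.9, 44.4 and 46.2 CPM, at 0.03. *DNAJB14*, *DNAJC14*, *DNAJC16* and *DNAJC18* had log2 fold changes between 0.09 and 0.46, all with overlapping groups.

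The HSP70 of the lumen, which serves lumenal J domains, was called higher, whereas the J domains of *DNAJB12*, *DNAJB14* and *DNAJC18* face the cytosol. *HSPA5* (BiP) was at 244, 375 and 104 CPM in UCP1 KI pigs and at 79.9, 69.3 and 92.9 CPM in WT pigs. No UCP1 KI pig was as low as a WT pig, and UCP1 KI replicate 3 was nearest to them. The log2 fold change was 1.58 (standard error 0.45), with an unadjusted p of 0.00834 and an adjusted p of 0.583 from edgeR's test, and it passed the limits with each of the 6 pigs left out, between 1.11 and 1.94. *SEC63*, a J-domain protein without a DNAJ symbol that recruits HSPA5 to the protein translocation channel, was at 33.1, 44.7 and 35.5 CPM in UCP1 KI pigs and at 14.7, 11.9 and 16.9 CPM in WT pigs. The groups were well apart, with a log2 difference of 1.38 (standard error 0.25, unadjusted p = 0.000576, adjusted p = 0.358 from edgeR's test) that passed the limits with each pig left out, between 1.24 and 1.51. Among further J-domain genes under other symbols, *HSCB* and *GAK* had log2 fold changes of 0.25 and -0.30 and overlapping groups. *HYOU1*, the large HSP110-type chaperone and exchange factor of the same compartment, was at 30.6, 23.9 and 18.0 CPM against 17.4, 15.5 and 16.8 CPM, and *SIL1*, another exchange factor of HSPA5, was at 6.69, 7.40 and 7.76 CPM against 2.59, 6.50 and 6.54 CPM. Both were higher in every UCP1 KI pig and neither passed the limits, with log2 fold changes of 0.54 and 0.49. Of the 24 HSP70 and HSP110 partners, exchange factors and co-chaperones tested, 4 were higher in every UCP1 KI pig (16.7%, against 7.59% of all genes tested). None was lower in every UCP1 KI pig, against 7.69% of all genes tested. *HYOU1* ranged from 0.34 to 0.72 with a pig left out and passed the limits without UCP1 KI replicate 3 and with library size only, and *SIL1* was at 0.15 without WT replicate 1.

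**Figure D3:**
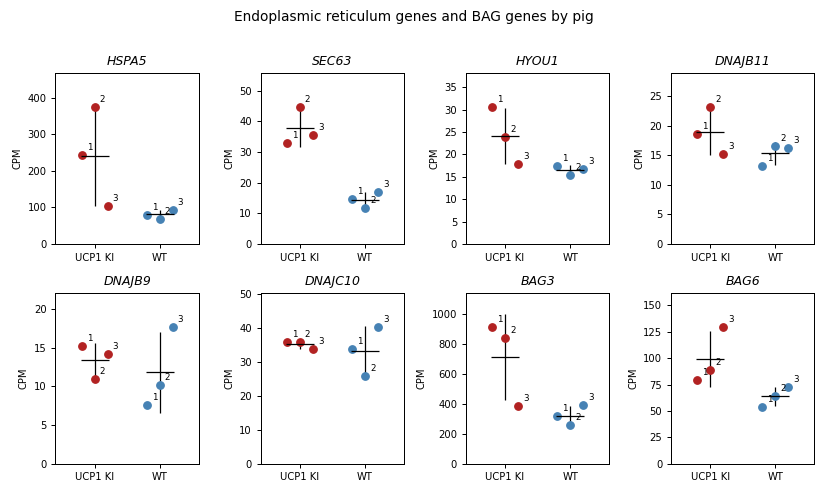
CPM of genes of the endoplasmic reticulum and of 2 BAG genes by pig, with points numbered by replicate, the mean as a horizontal bar and the SD over 3 pigs as a vertical bar. *SEC63* lies at 33.1 CPM or more in UCP1 KI pigs and at 16.9 CPM or less in WT pigs, *HSPA5* reaches 375 CPM in UCP1 KI replicate 2, and *DNAJB11*, *DNAJB9* and *DNAJC10* overlap.

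Several cytosolic members varied widely among the UCP1 KI pigs, and none of the 7 was called. *DNAJA1*, a heat-inducible class A co-chaperone of HSPA8, was at 392, 306 and 75.9 CPM in UCP1 KI pigs and at 74.1, 143 and 152 CPM in WT pigs. The first 2 UCP1 KI pigs were above all others, while replicate 3 lay close to the lowest WT pig. Its log2 fold change, the highest above 0 of the 36 members, was 1.07 (standard error 0.58, unadjusted p = 0.103, adjusted p = 0.654 from edgeR's test). Without UCP1 KI replicate 3 it was 1.51 and passed the limits, and it also passed them with library size only, at 1.31. With UCP1 KI replicate 1 left out it was 0.64, with WT replicate 1 left out it was 0.81, and it passed in neither case. *DNAJA4*, of the same class and induced by heat, was at 219, 107 and 22.9 CPM against 129, 94.3 and 74.4 CPM. UCP1 KI pigs spanned both ends of its range, with a log2 fold change of 0.23 that was -0.60 without UCP1 KI replicate 1. *DNAJA2*, which is made at a steady level in most cells, was at 84.3, 88.5 and 103 CPM against 68.6, 78.6 and 92.6 CPM, at 0.20 (95% interval -0.33 to 0.73).

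In class B, *DNAJB4*, a co-chaperone abundant in heart and skeletal muscle, received the most reads of the 4 cytosolic and nuclear members. It was at 346, 423 and 100 CPM in UCP1 KI pigs and at 254, 309 and 375 CPM in WT pigs, so that UCP1 KI replicate 3 stood below the other 5. The log2 fold change of -0.11 (95% interval -1.26 to 1.04) was 0.14 with library size only and 0.30 without UCP1 KI replicate 3. *DNAJB5* was likewise lowest in UCP1 KI replicate 3, at 59.0 CPM, with 116 and 167 CPM in the other UCP1 KI pigs and 168, 88.9 and 129 CPM in WT pigs. *DNAJB1*, which the selection left out and which belongs to the same heat-inducible genes, was at 91.7, 66.2 and 29.5 CPM against 87.2, 148 and 68.8 CPM, a log2 fold change of -0.70 (unadjusted p = 0.169 from edgeR's test), and was also lowest in UCP1 KI replicate 3.

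*DNAJB6*, which suppresses aggregation and acts at the sarcomere's Z-disc, went the other way within the UCP1 KI pigs. It was at 156, 186 and 196 CPM in UCP1 KI pigs and at 107, 91.2 and 171 CPM in WT pigs, with WT replicate 3 inside the UCP1 KI range. The log2 fold change was 0.54 (standard error 0.30, unadjusted p = 0.106 from edgeR's test) and passed the limits without WT replicate 3, at 0.86. *DNAJB2*, a co-chaperone that binds ubiquitin chains and is known best from neurons, was at 25.8, 65.2 and 50.8 CPM against 26.0, 5.08 and 37.6 CPM. WT replicate 2 stood apart at the low end, and the log2 fold change of 1.05 (standard error 0.66) was 0.57 without it.

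UCP1 KI replicate 3 was also the lowest of its group for several cytosolic partners. *HSPH1*, the heat-inducible HSP110, was at 43.3, 155 and 11 CPM in UCP1 KI pigs and at 50.4, 63.7 and 71.1 CPM in WT pigs. *HSPA6*, an HSP70 that is made almost only under stress, ran from 152 through 28.1 to 2.46 CPM in UCP1 KI replicates 1 to 3 and was at 0.469, 42.2 and 5.54 CPM in WT pigs. Both groups thus spanned a wide range of *HSPA6*, and it was not called (unadjusted p = 0.265 from edgeR's test). *HSPA8*, the constitutive HSP70, was at 1202, 1128 and 615 CPM against 384, 911 and 1215 CPM, a log2 fold change of 0.23 (95% interval -0.87 to 1.33) that was -0.11 without WT replicate 1 and 0.60 without WT replicate 3. Of 24 tested HSP70 and HSP110 partners, exchange factors and co-chaperones, 3 were called higher (12.5%, against 3.84% of all genes) and 0 were called lower. Besides *HSPA5* these were *BAG3*, which links HSP70 to autophagy of damaged muscle filaments, and *BAG6*, which escorts membrane proteins and proteasome substrates. *BAG3* was at 913, 840 and 383 CPM against 318, 258 and 389 CPM, a log2 difference of 1.15 (standard error 0.38, unadjusted p = 0.0184 from edgeR's test), and *BAG6* was at 79.6, 89.0 and 130 CPM against 54.0, 64.3 and 72.7 CPM, at 0.64 (standard error 0.27, unadjusted p = 0.0455). *BAG3* overlapped between the groups through UCP1 KI replicate 3, and *BAG6* did not overlap. Each of both passed the limits in 2 of the 6 fits with a pig left out, with *BAG3* at 0.93 to 1.45 and *BAG6* at 0.40 to 0.78. *HSPA5* alone of the 24 passed when UCP1 KI replicate 2 was left out, and likewise for WT replicate 1 and WT replicate 2. There were 2 that passed without UCP1 KI replicate 1, 4 without UCP1 KI replicate 3, and 6 when WT replicate 3 was left out, of which *HSPA12A* was lower, at -1.04.

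**Figure D4:**
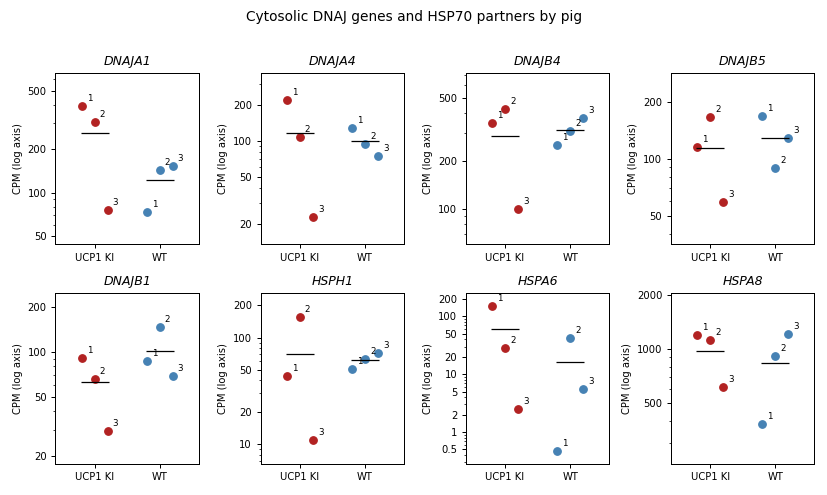
CPM on a log axis of 4 cytosolic DNAJ genes, *DNAJB1* and 3 HSP70 or HSP110 partners by pig, with points numbered by replicate and the mean as a bar. UCP1 KI replicate 3 is the lowest of the 6 pigs for *DNAJA4*, *DNAJB4*, *DNAJB5*, *DNAJB1* and *HSPH1*, and WT replicate 1 is the lowest for *DNAJA1*, *HSPA6* and *HSPA8*.

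The ratio of the highest to the lowest UCP1 KI pig was 9.56 for *DNAJA4*, 5.17 for *DNAJA1* and 4.21 for *DNAJB4*. These were the 3 of 35 members with at least 10 counts in every pig whose ratio exceeded 4 in UCP1 KI pigs (8.57%, against 6.83% of 11794 genes counted so). In WT pigs the ratio exceeded 4 for *DNAJB2*, at 7.40, and *DNAJC11*, at 4.02. The median ratio of the members was 1.53 among UCP1 KI pigs against 1.56 among WT pigs, close to the 1.55 and 1.69 of all genes counted so. The members thus had ranges within a group like those of other genes.

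None of the 5 mitochondrial members was called. *DNAJA3*, a class A protein of the matrix that works with HSPA9, was at 61.5, 59.8 and 35.4 CPM in UCP1 KI pigs and at 37.0, 32.8 and 63.5 CPM in WT pigs, so that UCP1 KI replicate 3 lay with the lower WT pigs and WT replicate 3 with the higher UCP1 KI pigs. *HSPA9*, the HSP70 of mitochondria, was at 131, 205 and 143 CPM against 93.8, 109 and 174 CPM, a log2 fold change of 0.35 (95% interval -0.40 to 1.09). *DNAJC19*, a component of the import motor at the inner membrane, was at 48.2, 45.6 and 52.4 CPM against 56.9, 50.9 and 64.2 CPM, at -0.23 (95% interval -0.73 to 0.26). *DNAJC15*, its close relative, and *DNAJC28* were at -0.14 and -0.54, with overlapping groups.

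On vesicles and endosomes, *DNAJC5*, the cysteine string protein of synaptic and secretory vesicles, was at 14.1, 9.76 and 13.5 CPM in UCP1 KI pigs and at 9.23, 13.6 and 13.6 CPM in WT pigs, at a log2 fold change of 0.04 (95% interval -0.60 to 0.67). *DNAJC6*, auxilin, which uncoats clathrin vesicles in neurons, was between 0.715 and 1.36 CPM in 5 pigs and at 2.48 CPM in WT replicate 1. *DNAJC27*, a protein with a GTPase domain beside its J domain, was at -0.19. Summed with *DNAJC13*, these 4 genes lay between 27.1 and 30.5 CPM in UCP1 KI pigs and between 30.7 and 38.4 CPM in WT pigs, and the groups overlapped with library size only. Apart from this list and that of the endoplasmic reticulum, the sums of all role lists overlapped between the groups with TMM factors too. So did the sum of all 36 members, at 2038, 1998 and 1302 CPM in UCP1 KI pigs and 1390, 1413 and 1745 CPM in WT pigs.

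Of the 4 members of ribosomes, splicing and chromatin, 0 were called. *DNAJC17*, a splicing factor, was at 11.6, 9.68 and 16.1 CPM against 6.64, 5.41 and 11 CPM, with WT replicate 3 inside the UCP1 KI range and a log2 difference of 0.70 (standard error 0.35, unadjusted p = 0.0809 from edgeR's test). It passed the limits without WT replicate 3, at 1.05, and with library size only, at 0.95. *DNAJC8*, a spliceosome protein that received the most reads of these 4, was at 43.1, 35.5 and 32.7 CPM against 40.4, 50.9 and 50.9 CPM, at -0.35. *DNAJC2*, which sits on the ribosome and helps HSP70 to meet nascent chains, was at 17.1, 19.3 and 27.6 CPM against 18.7, 22.6 and 21.0 CPM, at 0.04.

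Among the remaining members, *DNAJC7*, which bridges HSP70 and HSP90, was at 108, 67.1 and 110 CPM in UCP1 KI pigs and at 54.9, 69.5 and 111 CPM in WT pigs, at 0.28. *DNAJC4* was at -0.01, with 55.4 to 84.9 CPM in UCP1 KI pigs and 56.7 to 78.3 CPM in WT pigs. *DNAJC12*, a co-chaperone of the aromatic amino acid hydroxylases, was at 0.12. *DNAJB13*, a gene of sperm flagella, had 14, 3 and 18 counts for the UCP1 KI pigs against 20, 0 and 27 for the WT pigs, too few to detect a difference, and the 0 counts of WT replicate 2 allow a level of up to 0.11 CPM. RefSeq places *DNAJB13* over part of *UCP2*, and an overlapping locus was found for 15 of the 35 members with a RefSeq position.

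**Figure D5:**
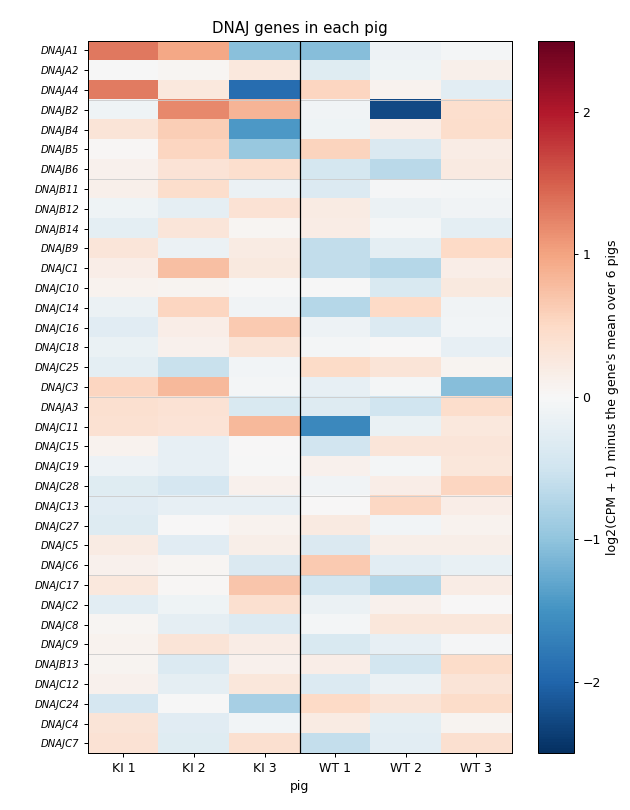
Log2(CPM + 1) of each DNAJ gene in each pig minus the mean of that gene over the 6 pigs, in the same order of rows, with UCP1 KI pigs left of the line. Blue cells, below the mean, of UCP1 KI replicate 3 include *DNAJA1*, *DNAJA4*, *DNAJB4* and *DNAJB5*. Blue cells of WT pigs include *DNAJB2* in replicate 2, *DNAJA1* and *DNAJC11* in replicate 1 and *DNAJC3* in replicate 3.

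By pig, WT replicate 1 was the lowest of the 6 for 11 members and WT replicate 2 for 8, whereas WT replicate 3 was the lowest for 2 and the highest for 8. UCP1 KI replicate 3 was the lowest for 6 members and the highest for 8. Its low members were *DNAJA4*, *DNAJB4*, *DNAJB5*, *DNAJC6*, *DNAJC8* and *DNAJC24*, and its high ones included *DNAJA2*, *DNAJB6*, *DNAJB12* and *DNAJC17*. UCP1 KI replicate 2 was the highest for 8, among them *DNAJC1*, *DNAJC3*, *DNAJB11* and *DNAJB4*. The 3 pigs of a group therefore did not rank alike from one member to the next.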

How the data were processed

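RNA-seq of longissimus dorsi muscle from 3 UCP1 KI pigs and 3 WT pigs was used, with 1 library per pig. The authors extracted RNA with TRIzol, sequenced paired ends, trimmed reads with Trimmomatic 0.36, mapped them with HISAT2 2.0 to Sscrofa11.1, ran StringTie 1.3.3b, and deposited raw counts per Ensembl gene without normalization. The counting program, the annotation release, the handling of reads with several matches and the strand of the libraries are not given in the sources used here. All 6 count columns were used, and the totals above set the counting error.

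In R 4.3.3, edgeR 4.0.16 was run on all genes kept by filterByExpr, with TMM factors and condition as the only term, and its quasi-likelihood F test was two-sided. Benjamini-Hochberg adjustment covered all genes tested. The standard error is the log2 fold change divided by the square root of F, and 95% intervals use the degrees of freedom of the test. DESeq2 1.42.0 was an alternative. Exact permutation tests used a pseudocount of 1. The test was checked on simulated counts. Replicates were compared pairwise by a chi-square of their counts, and each pair differed by far more than sampling noise. Gene symbols were read from an Ensembl name table for the pig, and positions from RefSeq on Sscrofa11.1. Role lists and partner lists were taken by symbol, and *DNAJB3*, *DNAJB7*, *DNAJB8*, *DNAJC5G*, *DNAJC21* and *DNAJC30* were found under no counted gene. The members and lists were chosen with earlier results of these data known. Values per pig were given for members past the limits, with an unadjusted p under 0.1, without overlap or with the most reads of their list, for called or non-overlapping partners, for *HSPA5*, *HSPA8*, *HSPA9* and *HSPH1*, and for further members, *HSPA6*, *SEC63*, *HSCB* and *GAK*, chosen after their values were seen.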

Additional observations from a re-analysis of the deposited data

How the results depend on the processing

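The counts of called genes were small and moved with the setting, and the cause was not tested except where stated. With library size only, 5 DNAJ genes were called higher (*DNAJC1*, *DNAJC3*, *DNAJA1*, *DNAJC11* and *DNAJC17*), 0 lower and 5 partners were called, and the median log2 fold change of the DNAJ genes was 0.36, beside a shift of all genes to 0.24. That scaling turned *DNAJC27* to 0.069, *DNAJB4* to 0.14, *DNAJC19* to 0.013, *DNAJC15* to 0.14, *DNAJC4* to 0.20 and *DNAJB5* to 0.033. With all genes of any count, 1 DNAJ gene was called lower (*DNAJC24*, not *DNAJC25*), and *DNAJC4* was at 0.0082. Leaving out each pig gave 0 to 4 DNAJ genes called higher, 0 to 1 lower and 1 to 6 partners, with fewer samples in each fit. A pairing of the pigs by replicate number was not shown, and so few pigs cannot exclude one. Same-numbered pigs correlated at 0.00, 0.09 and 0.28, the last being the largest between the groups, and 2 of 6 pigs correlated best with their own number. With a replicate block, 3 DNAJ genes were called higher (*DNAJC3*, *DNAJC11* and *DNAJC17*), 1 lower (*DNAJC24*) and 4 partners, while *DNAJC1* (0.83) and *DNAJC25* (-0.64) were not called, and *DNAJA4* was at -0.22. The log2 fold change changed sign when a pig was left out for 15 DNAJ genes that were not called, with ranges of -1.10 to 0.25 (*DNAJB13*), -0.12 to 0.50 (*DNAJC14*), -0.051 to 0.39 (*DNAJC12*), -0.19 to 0.18 (*DNAJC2*), -0.48 to 0.30 (*DNAJB4*), -0.13 to 0.18 (*DNAJC5*), -0.62 to 0.32 (*DNAJC6*), -0.17 to 0.14 (*DNAJB12*), -0.41 to 0.0064 (*DNAJC15*), -0.049 to 0.60 (*DNAJB9*), -0.19 to 0.12 (*DNAJC4*), -0.60 to 0.72 (*DNAJA4*), -0.077 to 0.24 (*DNAJC10*), -0.56 to 0.13 (*DNAJB5*) and -0.086 to 0.24 (*DNAJB14*). *DNAJC1*, *DNAJC3*, *DNAJC24* and *DNAJC25* kept their direction in every setting. Median-of-ratios factors, a minimum of 10 counts in every pig and DESeq2 left 2 DNAJ genes called in each direction. The sums over role lists and the overlap of the groups with library size only were added after the data were seen.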
